A study of Mus musculus with 5 samples.

Results

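The 10 genes described here, 8 targets of the transcription factor NRF2 and the metallothionein pair Mt1 and Mt2, were followed in mouse thyroid tumor cell lines with intact or deleted Ctnnb1, the gene of β-catenin. The members were taken by symbol (Nqo1, Hmox1, Gclc, Gclm, Txnrd1, Srxn1, Gsta4, Slc7a11, Mt1 and Mt2) from the 17923 genes listed in at least 1 library. All 10 were listed in each of the 5 libraries and all 10 passed the filter on low counts. In the libraries labelled BVE-Ctnnb1null, Gclc, Gclm and Txnrd1 had the largest fold excess of the mean over the BVE-Ctnnb1wt libraries. Mt1, Mt2, Hmox1 and Gsta4 differed more among the null libraries than between the groups. After adjustment over all genes edgeR called no member and 0.0% of all genes, while DESeq2 called Gclc, Gclm and Txnrd1 higher, beside 8.43% of all genes higher and 3.68% lower.

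All cells carried BrafV600E and came from thyroid tumors of donor mice, with deletion of Ctnnb1 as the labelled difference. The BVE-Ctnnb1wt libraries (n = 2) were both from the line BVE at passage 20, where thyrotropin (TSH) was absent for replicate 1 and present for replicate 2. Those labelled BVE-Ctnnb1null (n = 3) were BVECTN_4 at passage 8 without TSH (replicate 1), BVECTN_4A at passage 11 (replicate 2) and BVECTN_5 at passage 7 (replicate 3). TSH is not stated for null replicates 2 and 3, although the protocol text gives 4 mU/mL bovine TSH for culture, and it gives other passage numbers than the labels. The effects of line, of passage and of genotype cannot be told apart here. The labels do not say whether libraries are separate cultures, nor whether a line is a clone, so p-values measure only the spread between these libraries. The promoter that drove the deletion is not given in the sources used here. The estimated counts of wt replicates 1 and 2 came to 30432737 and 30713079, and those of null replicates 1, 2 and 3 to 29929677, 29360002 and 29415980. At this depth 3 counts, the upper limit for a gene with no count, were between 0.098 and 0.102 CPM (counts scaled to the total of the library), which covers counting error only.

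NRF2, encoded by Nfe2l2, is held at a low level by KEAP1, an adaptor that hands it to a CUL3 ubiquitin ligase. When electrophiles or oxidants modify KEAP1, NRF2 accumulates, pairs with small MAF proteins and binds antioxidant response elements (AREs) near genes for glutathione synthesis, thioredoxin recycling and quinone reduction. BACH1 binds the same kind of element as a repressor and is released by heme. Metallothioneins are small cysteine-rich proteins that bind zinc and copper, and they are induced through the zinc sensor MTF1 at metal response elements (MREs) and by glucocorticoids. Thyroid follicular cells produce hydrogen peroxide for hormone synthesis and are known for a strong peroxide-handling system.

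The RNA of the targeted gene was not lower in the libraries labelled null. FPKM (fragments scaled to transcript length and library total, as deposited by the authors) of Ctnnb1 was 59.29 and 73.75 in wt replicates 1 and 2. It was 124.58, 196.26 and 117.82 in null replicates 1, 2 and 3. Each library labelled null was thus above both wt libraries in FPKM, as were 35.9% of all genes tested. After TMM normalization the groups overlapped, at 251 and 356 CPM in wt and 418, 572 and 344 in null, with a log2 fold change of 0.55 (SE 0.44) and an adjusted p of 0.516 by edgeR. Values per transcript do not separate deleted exons, so Ctnnb1 RNA is no check of the deletion, and every direction below is between libraries labelled null and libraries labelled wt.

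Markers of thyroid epithelium were only partly seen in these thyroid tumor cell lines. Of the 8 thyroid follicular markers described, Tg was at most 0.86 FPKM, Tshr at most 0.11, Foxe1 at most 0.09 and Duox2 at most 0.04. Nkx2-1, the most abundant of the list, was at 9.21 and 15.02 in the wt libraries and at 9.26, 34.83 and 0.26 in null replicates 1, 2 and 3. Hhex was at 3.71 and 4.14 in wt and at 1.08, 20.24 and 1.38 in null. Pax8, a thyroid lineage factor, was at 0.4 and 0.17 in wt and at 18.15, 12.78 and 2.56 in null, each null library above both wt libraries, with an adjusted p of 0.179 by edgeR and 7.69e-05 by DESeq2 (up to 0.841 over the alternative fits). Slc5a5, the iodide transporter, was at 1.03 and 0.36 in wt and at 6.48, 0.05 and 0.14 in null. Summed over the list, thyroid markers were at 15.3 and 20.6 FPKM in wt and at 35.1, 68.5 and 4.82 in null. The 6 epithelial markers summed to 1010 and 1650 FPKM in wt and to 8020, 595 and 937 in null, with Krt18 the most abundant, and Epcam and Cdh1 were at 0 in null replicate 2. Krt8 and Krt18 carried most of the sum in wt, and in null replicate 3, although its sum was below both wt libraries, 4 of the 6 (Epcam, Cdh1, Krt19 and Cldn4) were at least 2-fold above the wt mean and 1 (Krt8) at least 2-fold below. The 9 fibroblast markers summed to 290 and 255 in wt and to 1.7, 148 and 1410 in null, with Col1a1 the most abundant. Of these, Postn, Dcn and Thy1 reached 101.56, 84.66 and 88.47 FPKM in null replicate 3 and were at or below 0.24 in each other library. The 5 immune markers summed to 6.58 and 15.6 in wt and to 59.8, 1.22 and 40.5 in null, mostly Cd68, while Ptprc, Adgre1 and Cd3e were listed in no library. The 4 endothelial markers summed to at most 0.66, most of it Kdr. These values differed between the null libraries, as did several members below, and their part in the results was not tested. In bulk RNA, fewer cells of a type and less RNA per cell cannot be told apart.

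The scale of comparison also mattered. A few abundant genes weighed more in the wt libraries, where the top 10 held 14.3% and 15.0% of all counts, against 6.9%, 8.0% and 7.9% in null replicates 1, 2 and 3. The median log2 fold change of all genes was 0.29 after TMM normalization, which corrects for such composition, 0.21 with the size factors of DESeq2, 0.61 on log2(FPKM + 0.1) and 0.87 with library totals alone. Fold changes below are after TMM normalization unless named otherwise, and members are also given relative to the median of all genes.

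Glutathione is built in a first, rate-limiting step by glutamate-cysteine ligase, whose catalytic subunit is Gclc and whose modifier subunit is Gclm. Gclc was at 3.46 and 2.98 FPKM in wt replicates 1 and 2 and at 27.14, 15.5 and 36.22 in null replicates 1, 2 and 3. The wt libraries lay close together, and even the lowest null library was far above them. Mean FPKM was 3.22 ± 0.339 (SD, n = 2) in wt and 26.3 ± 10.4 (SD, n = 3) in null, an 8.16-fold higher level. The log2 fold change of Gclc was 2.45 (SE 0.55), with an unadjusted p of 0.00332 and an adjusted p of 0.179 by edgeR. Gclm was at 5.8 and 9.02 FPKM in wt and at 32.16, 37.87 and 77.1 in null. Again the groups did not overlap, and null replicate 3 stood above the other null libraries. Mean Gclm was 7.41 ± 2.28 against 49.0 ± 24.5 FPKM, 6.62-fold higher in null, with a log2 fold change of 2.10 (SE 0.59), an unadjusted p of 0.00972 and an adjusted p of 0.192 by edgeR. The ratio of Gclm to Gclc FPKM was 1.68 and 3.03 in wt and 1.18, 2.44 and 2.13 in null, so the modifier subunit was the more abundant transcript in each library.

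Slc7a11, the cystine transporter that supplies cysteine for glutathione, was the least abundant member. It was at 1.27 and 0.32 FPKM in wt and at 1.79, 1.53 and 3.01 in null. Each null library was above both wt libraries in FPKM, but the wt libraries differed from each other by more than wt replicate 1 did from null replicate 2. The groups overlapped in TMM-normalized CPM, at 14.3 and 4.08 in wt and 15.5, 11.7 and 23.3 in null. The log2 fold change of Slc7a11 was 0.88 (SE 0.71), with an adjusted p of 0.522 by edgeR, and it moved to 1.98 when wt replicate 1 was left out and to 0.16 when wt replicate 2 was. Relative to Gclc, the transporter was at a ratio of 0.367 and 0.107 in wt and at 0.066, 0.0987 and 0.0831 in null.

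Gsta4, a glutathione transferase that conjugates lipid aldehydes such as 4-hydroxynonenal, was at 78.77 and 126.3 FPKM in wt and at 236.58, 92.39 and 69.86 in null. Null replicate 1 was the highest library and null replicate 3 the lowest. Mean Gsta4 was 103 ± 33.6 against 133 ± 90.5 FPKM. Its log2 fold change was -0.19 (SE 0.68, adjusted p = 0.898 by edgeR) after TMM normalization and 0.37 with library totals, so that no direction could be given.

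Txnrd1, cytosolic thioredoxin reductase, was at 38.63 and 23.65 FPKM in wt and at 146.49, 150.02 and 166.52 in null. The 3 null libraries lay close together, well above both wt libraries. Mean Txnrd1 was 31.1 ± 10.6 against 154 ± 10.7 FPKM, a 4.96-fold higher level in null. The log2 fold change was 1.75 (SE 0.42), with an unadjusted p of 0.00473 and an adjusted p of 0.186 by edgeR. Srxn1, sulfiredoxin, which restores overoxidized peroxiredoxins, did not share this pattern. It was at 43.84 and 51.3 FPKM in wt and at 54.22, 55.79 and 47.45 in null, the narrowest spread of the 10 members. Mean Srxn1 was 47.6 ± 5.28 against 52.5 ± 4.43 FPKM, and the log2 fold change was -0.45 (SE 0.40, adjusted p = 0.561 by edgeR) after TMM normalization and 0.14 with library totals. The ratio of Txnrd1 to Srxn1 FPKM within a library, which needs no scaling between libraries, was 0.881 and 0.461 in wt and 2.7, 2.69 and 3.51 in null.

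Txnrd1 was the only member with more than 1 listed RefSeq transcript. The transcript of 3417 bases held 46.2% and 49.6% of the estimated counts of the gene in wt and 83.6%, 58.2% and 65.1% in null. The transcript of 3310 bases held 47.6% and 48.4% in wt and 13.8%, 40.1% and 34.4% in null. The share of the 3417-base transcript was above both wt libraries in each null library. In FPKM, the transcript of 3417 bases was at 17.61 and 11.55 in wt and at 122.09, 86.2 and 107.27 in null. The transcript of 3310 bases was at 18.74 and 11.66 in wt and at 20.82, 61.32 and 58.49 in null, so that in null replicate 1 nearly all of the excess lay in the 3417-base transcript. Transcripts of 3505 and 3634 bases held at most 3.4% each. Counts of transcripts that share most of their bases are split by estimation, which limits these shares.

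**Figure D1:**
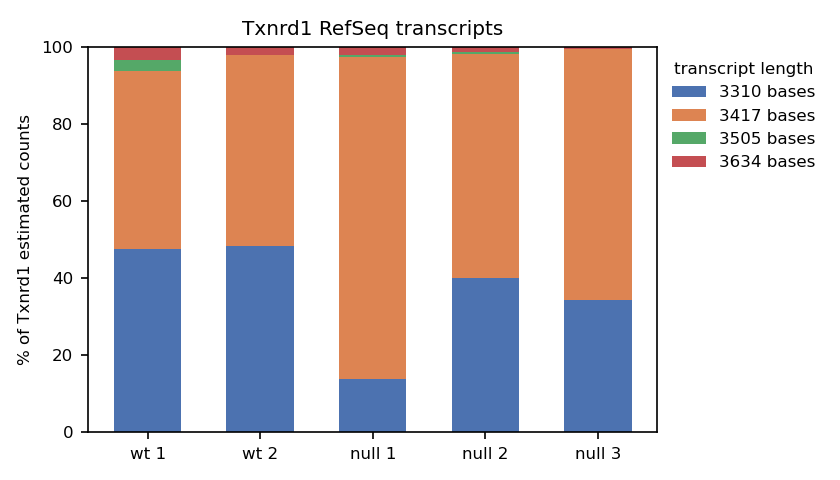
Stacked bars give the share of Txnrd1 estimated counts (%) assigned to each of 4 RefSeq transcripts, named by length, in the 2 libraries labelled wt and the 3 labelled null. The 3417-base transcript holds between 58.2% and 83.6% in the null libraries and 46.2% and 49.6% in the wt libraries.

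Nqo1, a quinone reductase often read as an NRF2 reporter, was at 15.34 and 44.01 FPKM in wt and at 86.48, 63.26 and 79.75 in null. Each null library was above both wt libraries, but wt replicate 2 was 2.87-fold above wt replicate 1. In CPM after TMM normalization wt replicate 2, at 93.4, was above null replicate 2, at 80.3. Mean Nqo1 was 29.7 ± 20.3 against 76.5 ± 11.9 FPKM, 2.58-fold higher in null, with a log2 fold change of 0.74 (SE 0.60, adjusted p = 0.522 by edgeR). Without wt replicate 1 the fold change was 0.05, and without wt replicate 2 it was 1.75, so its size rested on which wt library was used.

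Hmox1, heme oxygenase 1, which degrades heme to biliverdin, iron and carbon monoxide, was at 55.98 and 52.79 FPKM in wt and at 119.05, 25.71 and 225.69 in null. The wt libraries nearly coincided, while null replicates 1 and 3 were above them and null replicate 2 below. The highest null library was 8.78-fold above the lowest. The log2 fold change of Hmox1 was 0.60 (SE 0.83, adjusted p = 0.715 by edgeR), and it was -0.16 without null replicate 3.

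Mt1 was at 96.29 and 269.7 FPKM in wt and at 92.8, 71.68 and 194.35 in null. Wt replicate 2 was the highest library, and null replicates 1 and 2 were the lowest. Mean Mt1 was 183 ± 123 against 120 ± 65.6 FPKM, and the log2 fold change was -1.25 (SE 0.66, adjusted p = 0.345 by edgeR). Leaving out wt replicate 1 gave -1.93, and leaving out wt replicate 2 gave -0.26. Mt2 was at 38.96 and 125.35 FPKM in wt and at 9.94, 10.27 and 232.79 in null. Null replicates 1 and 2 lay below both wt libraries and null replicate 3 above them, with a 23.4-fold range among the null libraries. Mean Mt2 was 82.2 ± 61.1 against 84.3 ± 129 FPKM. Its log2 fold change was -0.64 (SE 1.39, adjusted p = 0.824 by edgeR) with all libraries, 0.03 with library totals, -3.68 without null replicate 3 and 0.53 without wt replicate 2, so its direction rested on single libraries.

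Within a library the metallothionein genes were not expressed in a fixed proportion. The ratio of Mt2 to Mt1 FPKM was 0.405 and 0.465 in wt and 0.107, 0.143 and 1.2 in null replicates 1, 2 and 3. The ratio was thus alike in both wt libraries although replicate 2 had 2.80-fold more Mt1 and 3.22-fold more Mt2 than replicate 1, and it was lower in 2 null libraries and higher in the third. Mt1 and Mt2 together reached 135.2 and 395.0 FPKM in wt and 102.7, 81.95 and 427.1 in null.

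**Figure D2:**
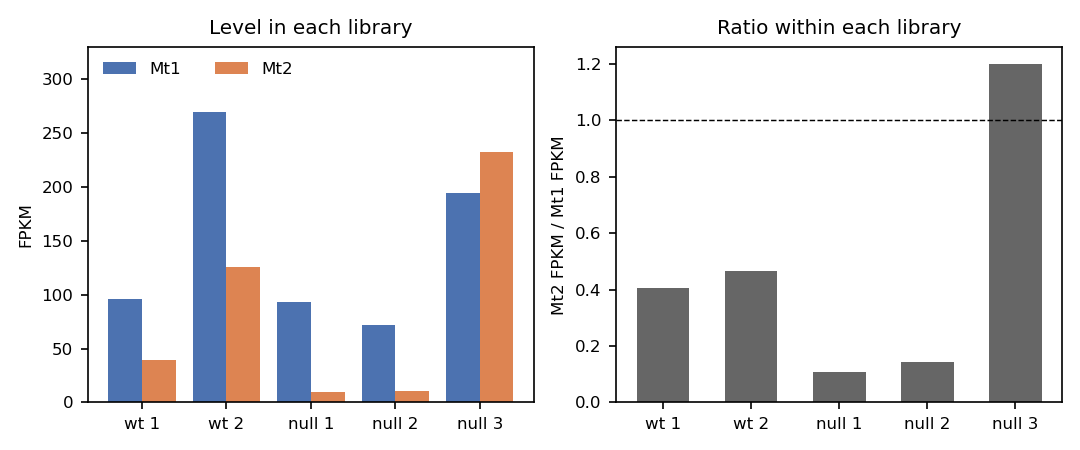
Left, bars give FPKM of Mt1 and Mt2 in each library labelled wt or null. Right, bars give the ratio of Mt2 to Mt1 FPKM in the same library (dashed line, equal FPKM), which is 0.405 and 0.465 in wt and ranges from 0.107 to 1.2 in null.

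**Figure D3:**
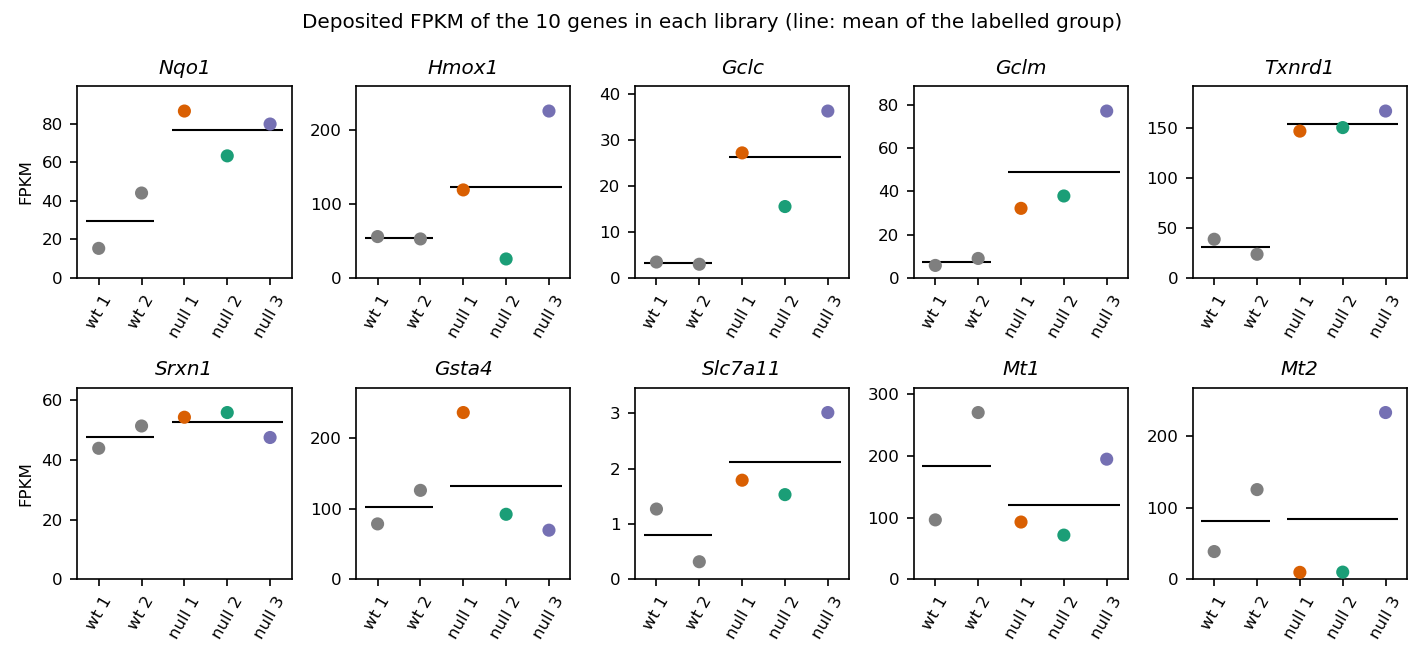
Each panel gives the deposited FPKM (linear axis from 0) of 1 member in the 2 libraries labelled wt and the 3 labelled null, with a line at each group mean. Points of Gclc, Gclm, Txnrd1, Nqo1 and Slc7a11 do not overlap between groups, and those of Hmox1, Srxn1, Gsta4, Mt1 and Mt2 do.

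Promoter windows are shown for Mt1 and Mt2, whose ratio varied, and for Gclm and 1 of 3 Txnrd1 windows, chosen because they hold an ARE core, unlike those of Nqo1 and Slc7a11, whose groups also did not overlap in FPKM. RefSeq windows of GRCm38.p6 were searched over the 250 bases before a start site, on both strands, for the ARE core TGACNNNGC and for the MRE cores TGCACNC and TGCGCNC. Windows were matched for 7 of the 10 members, Nqo1, Gclm, Txnrd1 (3 windows), Srxn1, Slc7a11, Mt1 and Mt2, and Hmox1, Gclc and Gsta4 are only named. Of 32851 windows of this length, 10.2% held the ARE core and 21.4% an MRE core, and 1.26% held 3 or more MRE cores. Capitals mark the matches, and each sequence reads 5′ to 3′ on the strand of the gene.
Gclm, chr3:122245307-122245556, plus strand: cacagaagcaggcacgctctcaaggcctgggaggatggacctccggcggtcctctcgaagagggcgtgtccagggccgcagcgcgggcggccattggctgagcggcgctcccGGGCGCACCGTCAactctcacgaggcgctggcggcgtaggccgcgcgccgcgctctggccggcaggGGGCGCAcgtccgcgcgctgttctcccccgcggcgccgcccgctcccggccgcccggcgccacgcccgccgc
Txnrd1, chr10:82858956-82859205, plus strand: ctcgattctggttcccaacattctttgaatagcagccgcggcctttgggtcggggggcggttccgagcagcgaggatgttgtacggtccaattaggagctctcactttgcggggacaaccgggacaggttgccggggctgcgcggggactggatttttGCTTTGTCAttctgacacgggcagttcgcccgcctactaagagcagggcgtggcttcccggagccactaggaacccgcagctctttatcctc
Mt1, chr8:94178839-94179088, plus strand: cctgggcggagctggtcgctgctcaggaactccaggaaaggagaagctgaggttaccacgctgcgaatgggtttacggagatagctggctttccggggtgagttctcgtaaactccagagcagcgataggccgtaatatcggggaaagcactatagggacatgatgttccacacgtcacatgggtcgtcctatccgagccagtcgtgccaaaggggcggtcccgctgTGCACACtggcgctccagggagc
Mt2, chr8:94172368-94172617, plus strand: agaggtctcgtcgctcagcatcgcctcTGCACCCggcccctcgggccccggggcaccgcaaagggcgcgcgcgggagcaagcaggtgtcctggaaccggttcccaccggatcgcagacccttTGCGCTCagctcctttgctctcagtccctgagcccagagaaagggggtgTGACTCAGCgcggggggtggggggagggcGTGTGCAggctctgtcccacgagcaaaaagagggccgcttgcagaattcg

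The Mt2 window held 3 MRE cores, TGCACCC at -223, TGCGCTC at -128 and, on the other strand, GTGTGCA at -50, and 1 ARE core, TGACTCAGC at -79, whose first 7 letters also spell the AP-1 motif TGACTCA. Positions count from the start site to the first base of the match. The Mt1 window held 1 MRE core, TGCACAC at -23, and no ARE core. The Gclm window held 1 ARE core at -134 on the other strand, overlapping an MRE core at -138, and a further MRE core at -72. The Txnrd1 window shown held 1 ARE core at -92 on the other strand, and the other Txnrd1 windows held none. Srxn1 held 1 MRE core at -19, and Nqo1 and Slc7a11 held none of these letters. These matches describe letters in a short window and are not measured sites. Bases after the listed start site, or further before it, were not searched, so the number of cores is not that of a whole promoter.

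Over the 10 members the median log2 fold change was 0.67, against 0.29 over all 13217 genes tested. Without wt replicate 1 these medians were 0.27 and 0.38, so the members were then not above all genes, and without null replicate 3 they were 0.30 and 0.16. By edgeR, 0 members were called at an adjusted p under 0.05, and so were 0.0% of all genes in the higher and 0.0% in the lower direction, the lowest adjusted p of any gene being 0.0847. With an unadjusted p under 0.05, 3 members (Gclc, Gclm and Txnrd1) were higher and 0 lower, where 12.5% and 6.08% of all genes were. DESeq2 called the same 3 members higher at an adjusted p under 0.05, at 0.00147, 0.0177 and 0.00312, where it called 8.43% of all genes higher and 3.68% lower. Over the 14 alternative fits the adjusted p of each of these 3 genes reached 0.841, and DESeq2 was the only fit that called them. In FPKM, 5 members had each null library above both wt libraries, where 35.9% of all genes did, and 0 had each below, where 7.23% did. In CPM after TMM normalization these were 3 members above (Gclc, Gclm and Txnrd1), against 22.6% of all genes, and 1 below (Srxn1), against 17.2%. For single FPKM values an exact permutation test over the 5 libraries (two-sided, difference of means) cannot go below 0.1, which it gave for Nqo1 and Txnrd1, and it gave 0.2 for Gclc, Gclm and Slc7a11. Relative to the median of all genes under 4 scalings, Gclc was higher by 2.15 to 2.30, Gclm by 1.80 to 2.02 and Txnrd1 by 1.44 to 1.73 on the log2 scale. On the same relative scale Nqo1 was higher by 0.44 to 0.93, Slc7a11 by 0.53 to 0.87 and Hmox1 by 0.09 to 0.31. Mt1 was at -1.56 to -1.18, Mt2 at -1.89 to -0.83, Srxn1 at -0.74 to -0.47 and Gsta4 at -0.50 to -0.40. These ranges used all 5 libraries. Without wt replicate 1 the log2 fold change of Nqo1 was 0.05, below the median of 0.38. Without wt replicate 2 Slc7a11 was at 0.16, below the median of 0.32, and Mt2 at 0.53, above it. Without null replicate 3 Hmox1 was at -0.16, below the median of 0.16.

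**Figure D4:**
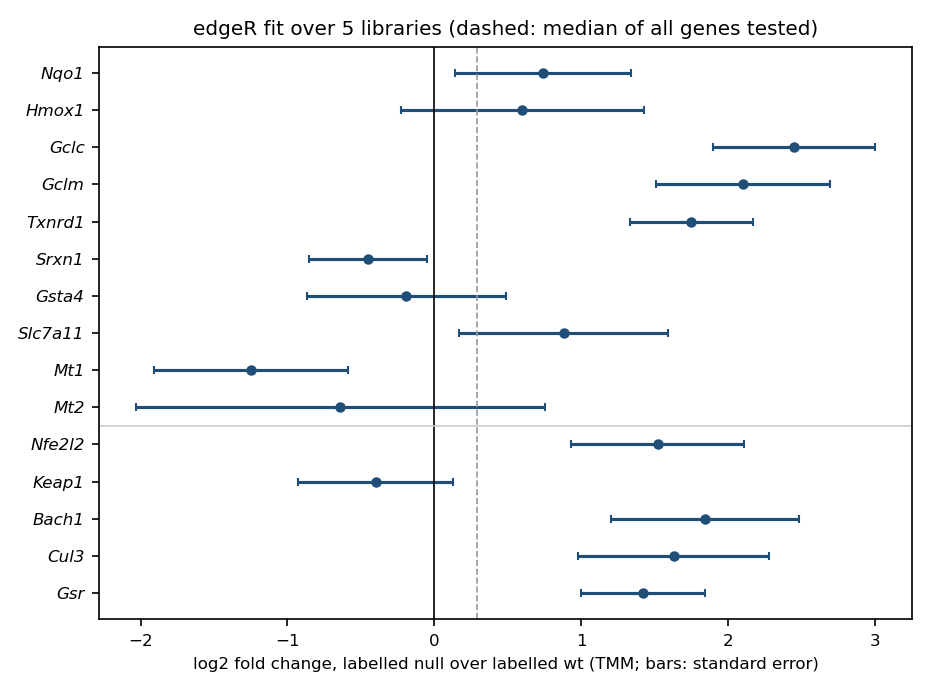
Points give the log2 fold change of libraries labelled null over libraries labelled wt for the 10 members, 4 NRF2 regulators and Gsr, fitted by edgeR after TMM normalization, and bars give the standard error (5 libraries). Among the members, Gclc, Gclm and Txnrd1 lie between 1.75 and 2.45, and the bars of Hmox1, Gsta4 and Mt2 cross 0. Of the members, Srxn1, Gsta4 and Mt2 change sign with library totals.

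By level, which FPKM allows between genes, the order in wt was Mt1, Gsta4, Mt2, Hmox1, Srxn1, Txnrd1, Nqo1, Gclm, Gclc and Slc7a11. In null it was Txnrd1, Gsta4, Hmox1, Mt1, Mt2, Nqo1, Srxn1, Gclm, Gclc and Slc7a11. Of the 9 steps between neighbours, 3 in wt exceeded the sum of both SDs, those from Srxn1 to Txnrd1, from Gclm to Gclc and from Gclc to Slc7a11. In null 2 did, from Nqo1 to Srxn1 and from Gclc to Slc7a11. Txnrd1 was above 87.3% and 82.5% of the listed genes in wt and above 96.1%, 96.6% and 96.7% in null, and Mt2 was above 87.4% and 95.6% in wt and 65.6%, 63.6% and 97.6% in null.

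The 3 null lines were then set one by one against the mean of both wt libraries, which the 3 comparisons share. A single library has no replicate check, so these are values with no test. Gclc was at log2 ratios of 3.08, 2.27 and 3.49 in null replicates 1, 2 and 3, Gclm at 2.12, 2.35 and 3.38, Txnrd1 at 2.23, 2.27 and 2.42 and Nqo1 at 1.54, 1.09 and 1.43. These 4 genes were at least 2-fold higher in each null library. Hmox1 was at 1.13, -1.08 and 2.05, and Mt2 at -3.05, -3.00 and 1.50. In null replicate 1, 7 of 10 members were at least 2-fold higher and 1 lower, where 37.5% and 12.6% of all genes were. In null replicate 2, 4 were higher and 3 lower (Hmox1, Mt1 and Mt2), against 41.4% and 9.76% of all genes. In null replicate 3, 7 were higher and 0 lower, against 42.1% and 9.53%. Null replicate 3, where Mt2 and Hmox1 were highest, was also the library with the highest fibroblast markers, and null replicate 1, where Gsta4 was highest, had the highest epithelial markers, and their part was not tested. Without null replicate 3, the log2 fold changes of Gclc, Gclm and Txnrd1 were 2.14, 1.61 and 1.68.

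**Figure D5:**
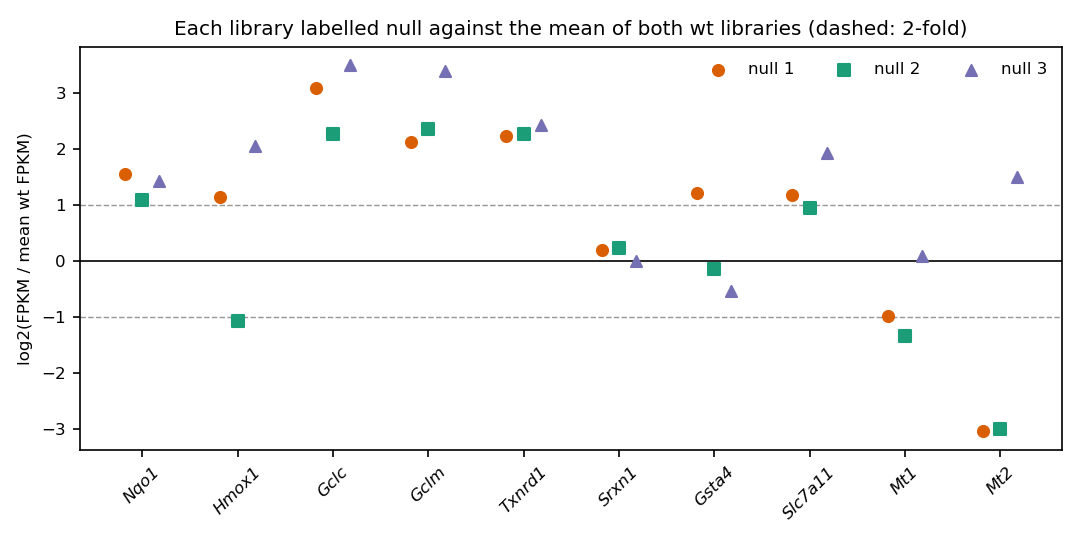
Points give log2 of the FPKM of each of the 3 libraries labelled null over the mean FPKM of both libraries labelled wt (dashed lines, 2-fold). Nqo1, Gclc, Gclm and Txnrd1 lie above 1 for all 3, Srxn1 stays between -0.00 and 0.23, and Hmox1, Gsta4, Mt1 and Mt2 lie on both sides of 0.

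The pair of wt libraries differed by TSH in their labels, with 1 library each and no test. Mt1, Mt2 and Nqo1 were at least 2-fold higher in the library with TSH, where 4.37% of all genes were, at log2 ratios of 1.49, 1.69 and 1.52. Slc7a11 was lower, at -1.99, where 10.3% of all genes were at least 2-fold lower. Hmox1, Srxn1 and Gclc were at -0.08, 0.23 and -0.22. Between the libraries labelled without TSH, null replicate 1 over wt replicate 1, log2 ratios were 2.97 for Gclc, 2.47 for Gclm, 1.92 for Txnrd1, 2.50 for Nqo1, 0.50 for Slc7a11, -0.05 for Mt1 and -1.97 for Mt2.

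Of the 10 genes that control NRF2, 0 were called by edgeR, 3 were higher and 0 lower with an unadjusted p under 0.05, and the median log2 fold change was -0.32. Nfe2l2 itself was at 26.56 and 15.22 FPKM in wt and at 80.95, 138.68 and 46.85 in null. Each null library was above both wt libraries, with null replicate 2, the library lowest in Hmox1, the highest. Its log2 fold change was 1.52 (SE 0.59, adjusted p = 0.247 by edgeR). Keap1 overlapped between groups, at 14.74 and 23.59 in wt and 30.31, 19.84 and 14.87 in null (log2 fold change -0.40, adjusted p = 0.705 by edgeR). Cul3, the scaffold of the ligase, was at 5.2 and 2.15 in wt and at 8.18, 24.57 and 17.91 in null (1.63, adjusted p = 0.253 by edgeR), and its RING partner Rbx1 had a log2 fold change of -0.58 (adjusted p = 0.565 by edgeR). Bach1 was at 0.77 and 0.41 in wt and at 1.71, 3.61 and 4.15 in null (1.84, SE 0.64, adjusted p = 0.224 by edgeR and 0.049 by DESeq2). The small MAF genes Maff, Mafg and Mafk had log2 fold changes of -0.21, -0.25 and -0.49, and Nfe2l1, a related factor, of -0.39, none with an adjusted p under 0.591 by edgeR. Sqstm1, the p62 adaptor that binds KEAP1 and is itself an NRF2 target, was abundant in each library, at 988.61 and 579.06 in wt and 769.04, 404.95 and 858.98 in null (log2 fold change -0.76, adjusted p = 0.418 by edgeR).

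The other genes of these pathways were read from lists, in which edgeR called 0 genes. Over all 10 other pathway lists, regulators included, 15 of the 100 genes tested were higher and 3 lower with an unadjusted p under 0.05, beside the 12.5% and 6.08% of all genes given above. DESeq2 called 11 higher and 1 lower, beside 8.43% and 3.68% of all genes, and the median log2 fold change was 0.17. For Bach1, Gsr, Aldh1a1, Cat and Atp7a, as for the 3 members, DESeq2 made the only call among the 14 alternative fits, in which the adjusted p reached 0.841. Of 18 glutathione genes tested, 4 were higher and 0 lower with an unadjusted p under 0.05, with a median of 0.75. Gsr, which regenerates glutathione with NADPH, was at 10.1 and 11.49 FPKM in wt and at 45.57, 44.83 and 40.14 in null. Its groups did not overlap and each lay close together (log2 fold change 1.42, SE 0.42, adjusted p = 0.194 by edgeR and 0.0297 by DESeq2). The most abundant of the list, Gpx4, Gstp1 and Gstm1, overlapped between the groups, at log2 fold changes of -0.89, -0.16 and -0.43.

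Of 10 thioredoxin and peroxiredoxin genes, 0 were higher and 1, the mitochondrial reductase Txnrd2, was lower with an unadjusted p under 0.05, with a median of -0.39. Txnrd2 was at 9.99 and 16.6 FPKM in wt and at 6.95, 8.8 and 2.47 in null, each null library below both wt libraries (log2 fold change -1.73, SE 0.67, adjusted p = 0.249 by edgeR). It thus lay opposite to the cytosolic Txnrd1, and the abundant Prdx2, Prdx5 and Txnip overlapped between groups. Of 6 genes that supply NADPH, 0 were higher and 1, Taldo1 of the pentose phosphate pathway, was lower with an unadjusted p under 0.05, at 483.73 and 400.31 in wt and 376.16, 309.11 and 265.09 in null (-1.04, SE 0.40, adjusted p = 0.244 by edgeR). Pgd and Tkt overlapped between the groups in FPKM.

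Of 11 quinone, aldehyde and xenobiotic enzymes, 3 were higher and 0 lower with an unadjusted p under 0.05, with a median of 0.55. Aldh1a1, a retinaldehyde dehydrogenase, was at 0.64 and 0.54 FPKM in wt and at 30.74, 46.08 and 14.36 in null. The gap between its groups was the widest among the named genes of this list (log2 fold change 5.11, SE 0.75, adjusted p = 0.179 by edgeR and 3.18e-10 by DESeq2). Aldh3a1 was high in 1 library, at 228.67 in null replicate 1 against 13.58 and 3.54 in the other null libraries and 6.64 and 18.95 in wt. Akr1b8 was higher in each null library in FPKM, with a log2 fold change of 0.50 (SE 0.41), and Ephx1 overlapped between the groups.

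Of 9 heme and iron genes, 0 were higher or lower with an unadjusted p under 0.05, with a median of 0.08. The ferritin chains Fth1 and Ftl1 were the most abundant, Fth1 at 2595.44 and 3193.69 FPKM in wt and 4513.52, 3215.97 and 6160.05 in null (log2 fold change 0.08). Hmox2, the constitutive heme oxygenase, was at 63.12 and 83.91 in wt and 67.66, 66.43 and 62.21 in null, a narrow range beside that of Hmox1, and Blvrb, a biliverdin reductase, was lowest in null replicate 2, at 63.82. Of 4 genes that remove superoxide or peroxide, 1, catalase (Cat), was higher with an unadjusted p under 0.05, at 4.58 and 7.95 in wt and 27, 31.54 and 48.85 in null (1.89, SE 0.54, adjusted p = 0.192 by edgeR and 0.023 by DESeq2), with a list median of 0.81. Sod1 overlapped between the groups, and Sod3 was at 135.54 in null replicate 3 and at most 0.65 elsewhere.

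Of 15 zinc and metal genes tested, 2 were higher and 0 lower with an unadjusted p under 0.05, with a median of 0.80. The copper transporter Atp7a was at 0.14 and 0.19 FPKM in wt and at 0.81, 2 and 1.68 in null (log2 fold change 2.54, SE 0.73, adjusted p = 0.192 by edgeR and 0.00673 by DESeq2). The zinc transporters Slc39a1, Slc30a4 and Slc30a5 overlapped between the groups, and Slc30a4 was highest in null replicate 2, at 69.38, where Mt1 was lowest.

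The expression profiles nearest to that of Nqo1 over the 5 libraries, among 7313 genes with a mean FPKM of at least 5, were Ube2c, Hmgcs1, Insig1, Chek2 and Pnrc1. Their root mean square distances in centred log2(FPKM + 0.1) were between 0.138 and 0.252. By the same measure Gclm ranked 1174, Txnrd1 1774, Srxn1 1779, Gsta4 2348, Gclc 2703, Hmox1 4554, Mt1 4617 and Mt2 6995, and Slc7a11, under the FPKM minimum, was not ranked. Nearest to Mt1 were Thra, Pfdn5, Pgam1, P4hb and S100a13, at distances between 0.291 and 0.299, while Mt2 ranked 5106 at 1.25. The distance counts the size of changes, and the correlation of Mt2 with Mt1 over the 5 libraries was 0.885.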

How the data were processed

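RNA of 5 libraries was prepared with TruSeq kits and sequenced on an Illumina HiSeq instrument. For each RefSeq transcript of each library the authors deposited an estimated count (with decimals where transcripts share reads) and FPKM, which divides by transcript length and by the total of the library. The lowest FPKM listed was 0.01. The aligner, counter and genome build are not given in the sources used here. Replicates were not pooled.

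Both deposited values were added up per NCBI gene number over its transcripts, and the estimated counts were rounded. Symbols came from the RefSeq table (17866 of 17923 genes matched). The members and lists were chosen with earlier results of these data known. Genes were compared with edgeR 4.0.16 in R 4.3.3 (TMM, filterByExpr by group, glmQLFit and glmQLFTest, 13217 genes, all 5 libraries, Benjamini-Hochberg adjustment over all genes, threshold 0.05). Alternatives were DESeq2 1.42.0, library totals only, no filter, a minimum of 10 counts in every library, fits with limma 3.58.1 on log2(FPKM + 0.1, 0.01 or 1) where 2 libraries reached an FPKM of 0.5 or without that filter, omission of each library, a replicate block, and the pair of libraries labelled without TSH. The fits were tested on simulated data, with no value quoted here. With 5 libraries that differ this much, the lack of an adjusted call by edgeR is not evidence of no change. Single libraries were compared by FPKM ratios with a floor of 0.01, and the background of 2-fold ratios used genes at an FPKM of 1 or more in either. Sums and ratios used Python 3.11.15 with numpy 2.4.6, pandas 2.3.3 and scipy 1.17.1.

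Named were all members, all NRF2 regulators, in each other list the 3 genes with the highest mean FPKM and the gene with the lowest p, the 5 nearest profiles to Nqo1 and to Mt1, and Ctnnb1. Other genes named in the text come from the cell type marker lists, except Fkbp5, Per1 and Tsc22d3, chosen after their values were seen, and 1 thyroid marker of the planned list was left out. Groups held 2 and 3 libraries, and the limit of 3 counts was at most 0.102 CPM.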

Additional observations from a re-analysis of the deposited data

How the results depend on the processing

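The adjusted call depended on the tool. DESeq2 called 1114 genes higher and 487 lower and 3 members higher (Gclc, Gclm and Txnrd1), while edgeR called 0. No filter gave 4 genes lower, the minimum of 10 counts gave 1 lower, and limma gave 1 higher with each pseudocount and 5, 3 and 7 lower with 0.1, 0.01 and 1 added, but 0 and 0 without its filter (2397 higher and 414 lower at an unadjusted p under 0.05). With library totals in place of TMM the median of the members was 1.27, and it ranged from 0.27 to 0.90 with 1 library left out. The count of members with each null library above both wt libraries was chosen after seeing the data. It was 5 in FPKM and 3 in CPM after TMM normalization. The cause of these differences was not tested.

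Nqo1, Gclc, Gclm, Txnrd1, Slc7a11 and Mt1 kept their direction in all 15 alternatives, with Gclc between 2.12 and 3.02, Gclm between 1.61 and 2.72, Txnrd1 between 1.43 and 2.35, Nqo1 between 0.05 and 2.5, Slc7a11 between 0.16 and 1.98 and Mt1 between -1.93 and -0.05. Srxn1 turned to 0.14 with library totals and with limma, and to 0.31 in the pair without TSH. Gsta4 turned to 0.37 with library totals, 0.21 with limma and 1.59 in the pair without TSH, and ranged from -1.03 to 0.21 with 1 library left out. Mt2 turned to 0.03 with library totals and ranged from -3.68 (without null replicate 3) to 0.53 (without wt replicate 2), and with 1 library left out Hmox1 ranged from -0.16 to 1.00.

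Groups share 2 replicate numbers. Deviations of same-numbered libraries had correlations of -0.088 and -0.089 across genes. With 2 wt libraries the wt deviations mirror each other, so these are not separate checks and cannot show that nothing is shared. The replicate 1 libraries of both groups are also labelled without TSH. With the replicate block edgeR again called 0 genes, Hmox1 was at -0.53, Gsta4 at 0.01 and Mt2 at -3.35. Leaving out 1 wt library leaves 1, assumed to vary like the null libraries. Without wt replicate 1 or 2, 388 and 314 genes were higher with an unadjusted p under 0.05, against 1646 with all libraries.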

Other observations

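The ATF4 response to amino acid and endoplasmic reticulum stress also drives Slc7a11. Its genes other than Phgdh ranged widely among libraries of the same labelled group. Of 10 genes tested, edgeR called 0, 1 was higher and 1 lower with an unadjusted p under 0.05, and the median log2 fold change was -1.15. Phgdh, the first enzyme of serine synthesis, was at 1204.9 and 711.26 FPKM in wt and at 388.39, 430.42 and 343.36 in the libraries labelled null (log2 fold change -1.86, SE 0.39, adjusted p = 0.179 by edgeR and 0.000773 by DESeq2, up to 0.841 over the 14 alternative fits). Asns, asparagine synthetase, was at 773.66 and 185.17 in wt and 39.71, 84.59 and 345.06 in null. Ddit3, the stress factor CHOP, was at 190.03 and 87.98 in wt and 18.68, 5.33 and 924.33 in null, a wider fold range over the 5 libraries than that of any member. Between the wt libraries, 8 of the 9 genes with an FPKM of at least 1 were at least 2-fold lower in the library labelled with TSH, beside 10.3% of all genes, as was Slc7a11. Against the wt mean, 9 of 10 were at least 2-fold lower in null replicate 1 and 8 of 9 in null replicate 2, beside 12.6% and 9.76% of all genes. In null replicate 3, 1 of 9 was lower and 2 were higher, beside 9.53% and 42.1%. Slc7a11 was above the wt mean in all 3, at log2 ratios of 1.17, 0.94 and 1.92. These are single libraries with no test.

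Of 7 genes of the glucocorticoid response, edgeR called 0, 1 (Nr3c1, the receptor) was higher with an unadjusted p under 0.05, and the median was 0.35. Nr3c1 was at 1.65 and 1.33 FPKM in wt and at 3.03, 7.95 and 6.39 in null (log2 fold change 1.36, adjusted p = 0.264 by edgeR). Sgk1, Dusp1 and Cebpd, the most abundant of the list, were each highest in null replicate 3, at 54.11, 79.77 and 133.04, the library in which Mt2 was also highest. The other 4 genes were highest elsewhere, Fkbp5 and Nr3c1 in null replicate 2, Per1 in null replicate 1 and Tsc22d3 in wt replicate 1. Sgk1 and Cebpd overlapped between the groups.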
